A study of Mus musculus with 12 samples.

Results

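The genes described are the receptor of epidermal growth factor, its ligands and an inhibitor of that receptor, 9 of the 21887 protein-coding mouse genes compared. Ereg, Areg, Epgn, Btc, Hbegf, Tgfa and Egf encode the 7 ligands, Egfr the receptor, and Errfi1 the inhibitor. Their peaks were selected on measured positions: a peak belonged to a gene when its midpoint lay inside the gene or within 20 kb of either of its ends (GRCm38.p6, the assembly of mm10). This gave 1 of 1101 peaks in the K17KO p53 list, 4 of 2909 in the WT p53 list and 1 of 5464 in the H3K4me3 list. The group of genes was chosen with earlier results from these lists known, among them a WT p53 peak of high fold near Ereg, so the values below describe these genes and carry no test.

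The series is a chromatin immunoprecipitation study of back skin from mice of 8 to 10 weeks under a protocol of 5 Gy of ionizing radiation. Its 12 samples form 6 groups of 2: p53 in K17KO skin at T0 and 6 h, p53 in wild-type (WT) skin at the same 2 times, and H3K4me3, a histone mark of active promoters, in WT skin at these times. Every group carries the radiation label, T0 included. The labels do not say what allele K17KO is, whether T0 was taken before the radiation, or whether a group holds 2 animals. Only 3 peak lists were analysed, 1 per antibody and genotype, and WT was inferred for the p53 list that names no genotype. No list names a time point or a library, so T0 and 6 h were not compared and no value has a replicate error.

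The EGF receptor is a tyrosine kinase at the cell surface. Its ligands are made as membrane-bound precursors, and release by proteases lets them bind receptors on the same or nearby cells. In epidermis and hair follicle, ligand binding is known to drive keratinocyte growth and migration after injury, with several ligands made by keratinocytes themselves. Errfi1, also called Mig6, binds the active receptor and stops its signal. p53 is a transcription factor stabilized by DNA damage.

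The peak lists are shallow for p53. Peaks had a median of 11 fragments in the K17KO p53 list, where the caller's background was 1.39, and of 7 in the WT p53 list, where it was 0.992. H3K4me3 peaks had a median of 148, over 90.7. The lowest −log10 p kept was 4.07 in the K17KO p53 list and 3.03 in the WT p53 list, so the p53 lists were not limited at the same level. Of 7 known p53 target genes, 2 had a peak by the same window in the K17KO p53 list, where 5.94% of all protein-coding genes had one, and 6 in the WT p53 list, where 10.8% had one. Of the K17KO p53 pair, the peak at Bax lay inside that gene and the one at Ccng1 lay 14.5 kb outside it, within Nudcd2. In the H3K4me3 list 6 of 10 keratinocyte genes had a peak, beside 1 of 4 fibroblast genes, 0 of 9 endothelial, immune and melanocyte genes, and 32.9% of all protein-coding genes. Of these 6, Sfn had its peak 15.9 kb outside it, within Gpn2, and Dsp had peaks only 5.92 and 6.51 kb outside it. The keratinocyte genes with none were Krt5, Krt14, Trp63 and Itga6, of which the first 3 define basal keratinocytes, so absence from that list does not show absence of the mark.

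Promoter sequences are shown for the 3 genes with a peak at an annotated start. Each runs 5′ to 3′ from 250 bases before the start to 50 bases after it and comes from RefSeq (GRCm38.p6). A promoter entry was found for 7 of the 9 genes. Egf and Errfi1 had 2 entries each, and Ereg and Hbegf had none. In the Areg promoter (chr5:91139349-91139648, plus strand) the capitals mark the 111 bases that lie inside the WT p53 peak.
Areg: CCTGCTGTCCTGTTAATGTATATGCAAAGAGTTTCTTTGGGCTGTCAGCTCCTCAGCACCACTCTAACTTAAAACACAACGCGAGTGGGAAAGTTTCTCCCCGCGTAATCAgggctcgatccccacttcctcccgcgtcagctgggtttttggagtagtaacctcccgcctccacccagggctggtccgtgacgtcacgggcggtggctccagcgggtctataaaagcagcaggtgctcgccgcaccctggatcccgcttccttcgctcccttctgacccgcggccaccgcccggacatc

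The later of the 2 annotated Errfi1 starts is shown (chr4:150854820-150855119, plus strand), since the WT p53 peak begins 81 bases past the end of this stretch. The capitals mark TGACGTCA, the palindromic cyclic AMP response element (CRE).
Errfi1: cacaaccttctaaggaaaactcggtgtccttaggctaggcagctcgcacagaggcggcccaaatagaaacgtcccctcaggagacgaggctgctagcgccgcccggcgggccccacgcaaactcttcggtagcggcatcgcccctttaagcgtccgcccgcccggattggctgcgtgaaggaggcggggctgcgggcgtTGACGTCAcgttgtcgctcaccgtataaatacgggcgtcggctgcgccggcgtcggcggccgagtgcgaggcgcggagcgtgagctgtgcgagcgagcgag

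In the Btc promoter (chr5:91402945-91403244, minus strand) the capitals mark the 89 bases that lie inside the H3K4me3 peak.
Btc: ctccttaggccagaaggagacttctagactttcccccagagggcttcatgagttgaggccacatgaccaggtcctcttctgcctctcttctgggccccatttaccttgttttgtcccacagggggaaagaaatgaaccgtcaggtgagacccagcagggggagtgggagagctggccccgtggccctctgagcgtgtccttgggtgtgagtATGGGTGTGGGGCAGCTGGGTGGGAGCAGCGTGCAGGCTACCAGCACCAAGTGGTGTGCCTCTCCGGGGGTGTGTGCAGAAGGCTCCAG

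The strongest p53 peak at these genes lay beside Ereg, which encodes epiregulin, a ligand of the EGF receptor and of ErbB4. In the WT p53 list it spanned chr5:91110006-91110348, with its midpoint 16.5 kb beyond the higher end of Ereg and 29.4 kb below the start of Areg, outside any annotated gene. The deposited fold enrichment, which adds 1 to both fragments and background, was 7.53 and the −log10 p 12.6. The peak rested on 14 fragments (95% exact Poisson interval 7.65 to 23.5, counting error only) over a background of 0.992. It ranked 7 of 2909 by fold and 19 by −log10 p. Among p53 target genes of the same list, Bax, an apoptosis effector, had a −log10 p of 13.3, and Phlda3, a repressor of Akt signalling, had 12.5. The best peaks at Cdkn1a, Bbc3, Ccng1 and Trp53inp1 were lower, at 11.4, 11.3, 6.26 and 5.90, and Mdm2 had no peak in its window. The K17KO p53 list had no peak at Ereg, and its nearest lay 1.45 Mb away.

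Areg, which encodes amphiregulin, a keratinocyte growth factor, is the next gene beyond Ereg. Its WT p53 peak lay at the promoter, on chr5:91139157-91139459, with the midpoint 291 bp and the summit 326 bp before the annotated start. The peak was weak, at 3.02-fold with a −log10 p of 3.65 and a q-value of 0.286, on 8 fragments (interval 3.45 to 15.8) over 1.98. Only 6.63% of WT p53 peaks had a lower −log10 p. The nearest K17KO p53 peak was 1.52 Mb away. The Ereg and Areg peaks stood 29.1 kb apart.

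Hbegf, which encodes heparin-binding EGF-like growth factor, a ligand known to promote keratinocyte migration in wounds, had the other WT p53 peak of high rank. It lay on chr18:36488723-36488938, 16.1 kb below the lower end of Hbegf and outside any annotated gene. The fold was 5.46 and the −log10 p 8.21, on 11 fragments (interval 5.49 to 19.7) over 1.20, and it ranked 91 of 2909 by both measures. The K17KO p53 list had its nearest peak 120 kb from the gene.

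Epgn (epigen), Ereg, Areg and Btc (betacellulin) lie side by side on chromosome 5. No other protein-coding gene lies between Epgn and Btc. The 415 kb span of the 4 genes and their windows held 0 K17KO p53 peaks, 2 WT p53 peaks and 1 H3K4me3 peak. Epgn, an epidermal ligand that binds the receptor weakly, had none within its window, and its nearest WT p53 peak was the one beside Ereg, 75.0 kb away. The windows of Epgn and Ereg overlap by 0.596 kb, and no peak was counted for both.

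**Figure D1:**
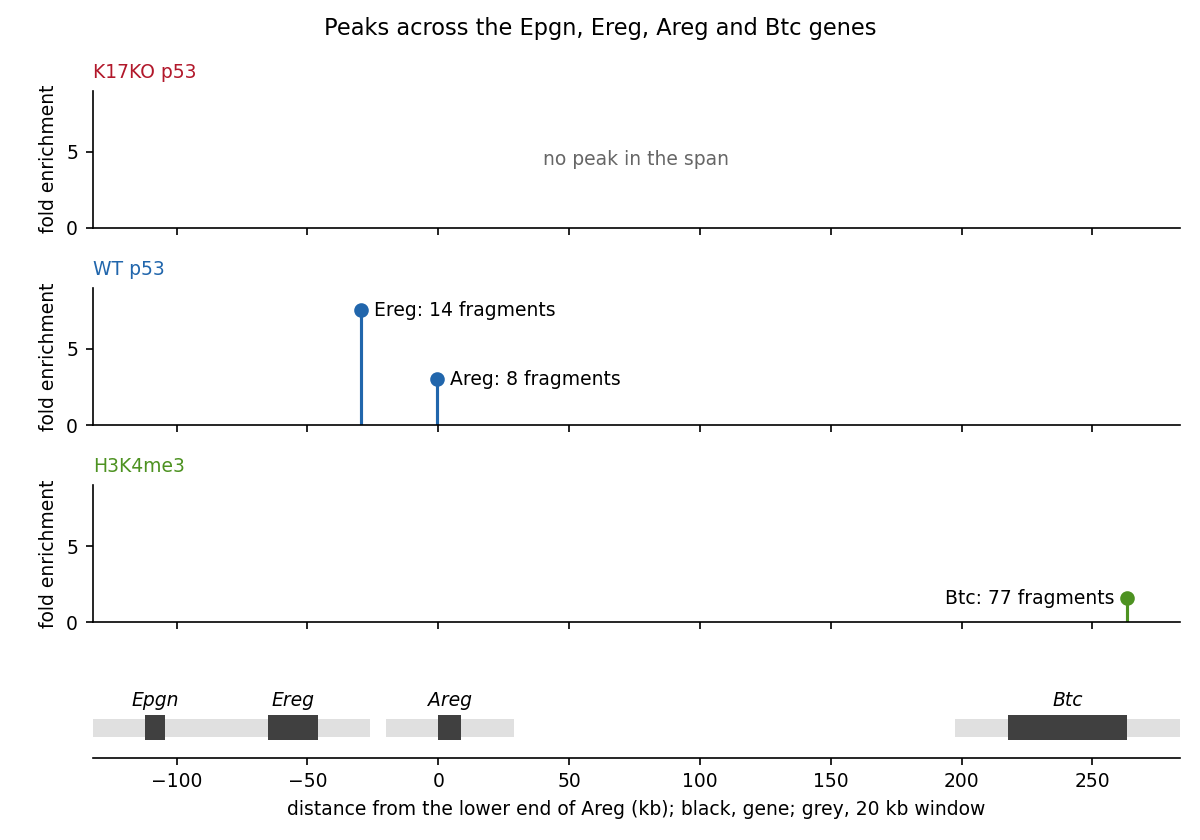
Deposited fold enrichment (y axis) of peaks in each list across the span of Epgn, Ereg, Areg and Btc, by distance from the lower end of Areg in kb (x axis). The WT p53 list has the 7.53-fold Ereg peak and the 3.02-fold Areg peak, the H3K4me3 list the 1.60-fold Btc peak, and the K17KO p53 list none.

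Tgfa, which encodes transforming growth factor alpha, a ligand required for normal hair shape in mice, was the member with a K17KO p53 peak. It spanned chr6:86252157-86252515, inside the gene and 57114 bp past its annotated start. The fold was 4.04 and the −log10 p 5.68 (q-value 0.0141), on 10 fragments (interval 4.80 to 18.4) over 1.72. In the K17KO p53 list 22.6% of peaks had a lower −log10 p. The nearest WT p53 peak was 1.16 Mb from Tgfa.

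Egf, the founding ligand of the family, had no peak within its window in any list. Its nearest WT p53 peak lay 48.6 kb away, inside Lrit3, at 3.99-fold on 7 fragments. The nearest K17KO p53 peak was 1.55 Mb away.

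The receptor gene Egfr had the largest window of the group, at 202 kb, and no peak in it. The nearest peaks were 2.92 Mb away in the K17KO p53 list, 289 kb away in the WT p53 list and 48.0 kb away in the H3K4me3 list. The last was 7130 bp from Fbxo48, the next gene, and rested on 11 fragments over 2.80.

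Errfi1, the inhibitor, had a WT p53 peak inside the gene, on chr4:150855201-150855595. The midpoint lay 328 bp and the summit 326 bp past the later annotated start, and the lncRNA gene 1700045H11Rik lay 449 bp from the midpoint. Its values were the same as those of the Areg peak: 3.02-fold, a −log10 p of 3.65 and a q-value of 0.286, on 8 fragments over 1.98. These values were shared by 55 peaks of the WT p53 list, since few counts give few possible values. The nearest K17KO p53 peak was 805 kb from Errfi1. Midpoints within 500 bp of an annotated start made up 16.0% of K17KO p53 peaks, 3.64% of WT p53 peaks and 49.3% of H3K4me3 peaks.

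**Figure D2:**
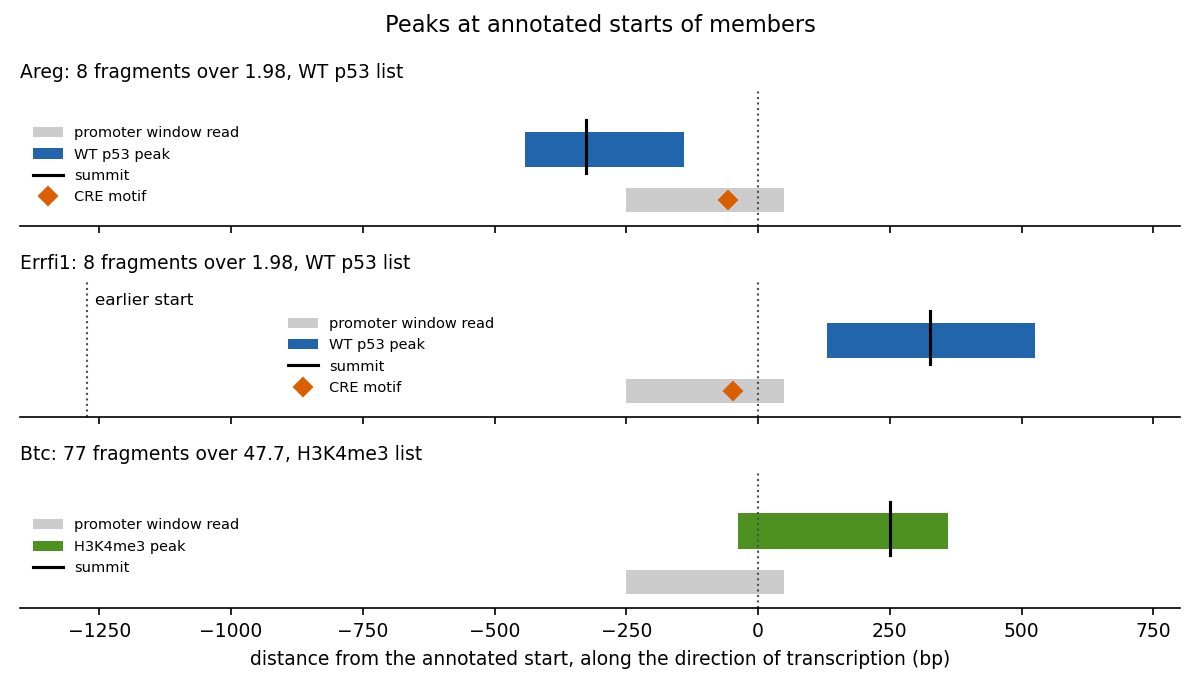
Peaks (coloured bars) and summits (black lines) at the annotated starts of Areg, Errfi1 and Btc, by distance from the start in bp along the direction of transcription (x axis). Grey bars are the 300-base promoter windows, dotted lines annotated starts and diamonds the CRE motif, which lies outside the peak at both Areg and Errfi1.

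The Areg promoter and the later Errfi1 promoter each hold 1 TGACGTCA, at 61 to 54 bases before the start in Areg (in lower case above, bases 190 to 197) and at 51 to 44 bases before it in Errfi1. Of all 32851 promoters of this length, 1.79% hold this motif on either strand, and 2 of the 9 promoter windows of these genes do. These 9 windows belong to 7 genes and leave out Ereg and Hbegf, which have no promoter entry. The p53 decamer consensus, searched on both strands without a mismatch, was found in 8.36% of all promoters. It was in 1 of the 9 windows, at the upstream one of 2 Egf starts, beginning 83 bases before it. With 1 mismatch outside the fixed C and G it was in 7 of 9 windows and in 50.9% of all promoters. The AP-1 motif TGANTCA was in 0 of the 9 and in 7.81% of all. None of the 111 Areg bases inside the p53 peak held the decamer, also with 1 mismatch. The motifs were chosen after the peaks were seen, and the rest of each peak was not searched.

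Btc was the member with an H3K4me3 peak. It spanned chr5:91402634-91403033 across the annotated start, with its summit 250 bp past it. The fold was 1.60, the −log10 p 4.46 and the q-value 0.0440, on 77 fragments (interval 60.8 to 96.2) over 47.7. In the H3K4me3 list 16.0% of peaks had a lower −log10 p. The nearest K17KO p53 peak was 1.74 Mb from Btc, and the nearest WT p53 peak, the one at Areg, 218 kb.

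Errfi1 had the next nearest H3K4me3 peak, 28.4 kb below the gene and so outside the window. It was 4.39-fold on 19 fragments over 3.56, with 71.3% of the list at a lower −log10 p and 96.3% at a lower fold, and lay 2809 bp from 1700045H11Rik. The H3K4me3 peaks nearest Hbegf and Epgn were 50.7 kb and 96.1 kb away, and those of Egf, Ereg, Tgfa and Areg 124 to 208 kb away. The member peaks nearest to the 20 kb limit were those of Hbegf and Ereg on the inside and the Errfi1 H3K4me3 peak on the outside, and no peak lay between 16.5 kb and 28.4 kb.

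**Figure D3:**
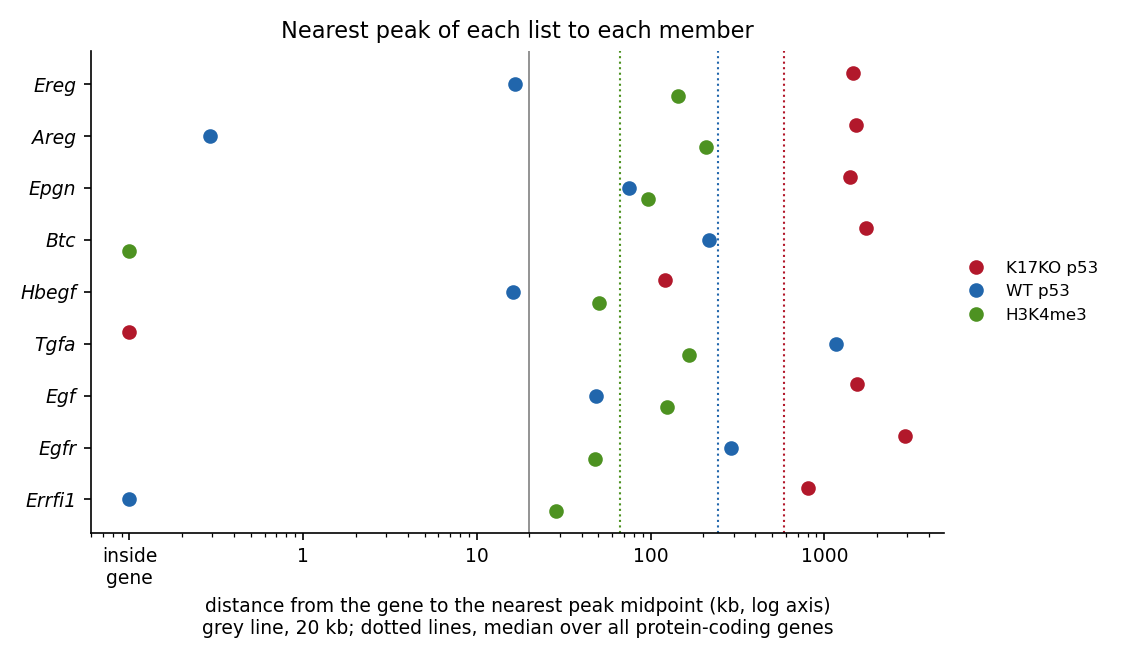
Distance in kb from each gene to the nearest peak midpoint of each list (x axis, log scale, peaks inside the gene drawn at the left edge), with the 20 kb limit as a grey line and the median over all protein-coding genes as dotted lines. WT p53 points lie at or left of 20 kb for Ereg, Areg, Hbegf and Errfi1, and the K17KO p53 points of 7 genes lie at 805 kb or more.

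**Figure D4:**
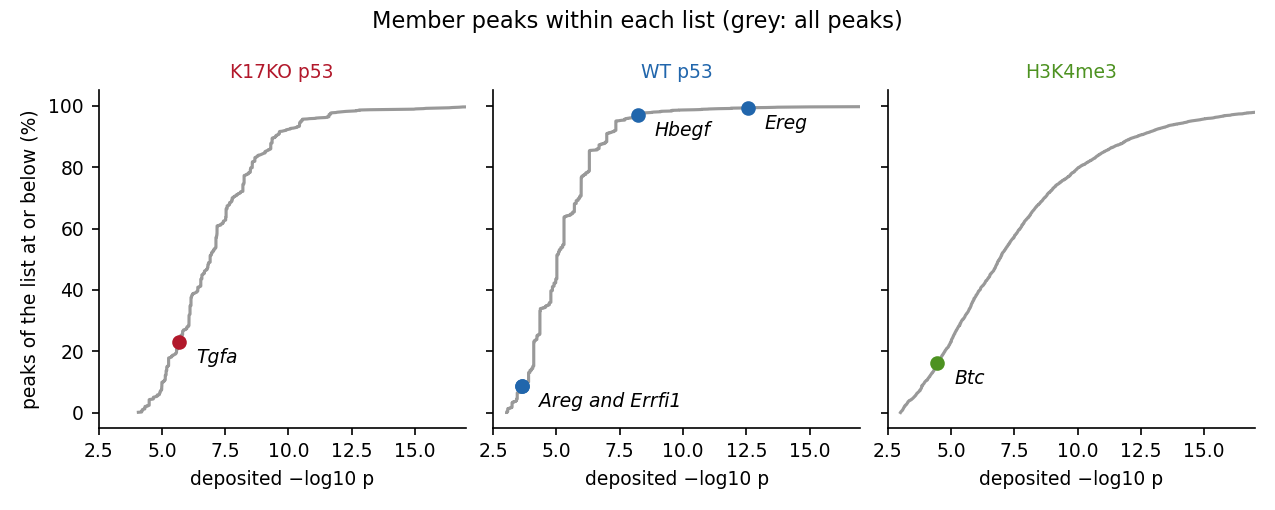
Share of each list's peaks at or below a deposited −log10 p (y axis, percent, against −log10 p on the x axis, which ends at 17 and leaves out the strongest peaks), with the member peaks as coloured points. Ereg and Hbegf lie at the top of the WT p53 list, and Areg and Errfi1 at its lower end, as do Tgfa and Btc in their lists.

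Counted over genes, 1 of 9 members (11.1%) had a K17KO p53 peak, where 5.94% of all protein-coding genes had one, and 4 of 9 (44.4%) had a WT p53 peak, where 10.8% had one. In the H3K4me3 list 1 of 9 (11.1%) had a peak, against 32.9% of all protein-coding genes. These counts rest on the positions that chose the peaks and on genes chosen with them known, so nothing is read from these shares. Without Ereg, 1 of 8 members had a K17KO p53 peak and 3 of 8 a WT p53 peak. With only peaks of a q-value of at most 0.1, the K17KO p53 count stayed at 1 of 9 beside 5.94% of all genes. The WT p53 count was then 2 of 9, Ereg and Hbegf, beside 6.79%, and the H3K4me3 count 1 of 9 beside 30.6%. With a 5 kb window the WT p53 count was 2 of 9, Areg and Errfi1, beside 6.75% of all genes, and with a 50 kb window the H3K4me3 count was 3 of 9, beside 45.1%. The median window of the members was 59.0 kb, beside 57.2 kb for all protein-coding genes. The median distance to the nearest peak was 1454 kb for the K17KO p53 list, 48.6 kb for the WT p53 list and 96.1 kb for the H3K4me3 list, and 581 kb, 242 kb and 66.7 kb over all protein-coding genes. The 9 distances are not separate values, since the neighbours Epgn, Ereg, Areg and Btc have the same nearest K17KO p53 peak. In the WT p53 list Epgn shares its nearest peak with Ereg, and Btc with Areg.

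**Figure D5:**
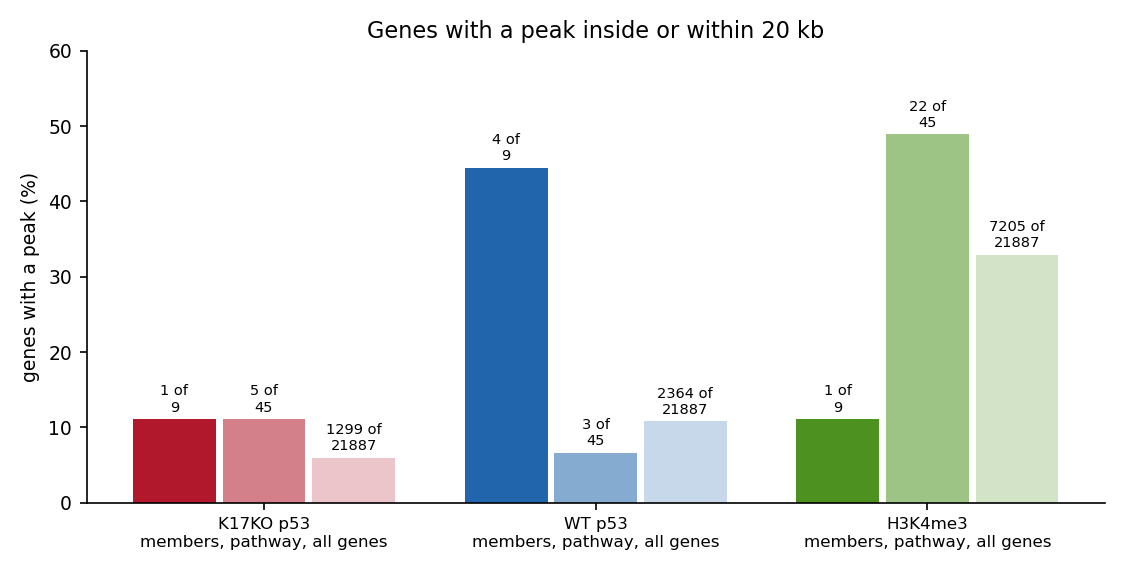
Percent of genes with a peak inside or within 20 kb (y axis, bars from 0) for the members, the other ErbB pathway genes and all protein-coding genes in each list (x axis), with the counts above the bars. Members reach 44.4% in the WT p53 list and 11.1% in the H3K4me3 list.

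Between genotypes, 0 of the 1 K17KO and 0 of the 4 WT p53 peaks at these genes overlapped a p53 peak of the other list. Over the whole lists 9 sites were shared, 0.817% of the K17KO p53 list and 0.309% of the WT p53 list. The Areg and Errfi1 peaks had a lower −log10 p than the weakest peak of the K17KO p53 list (3.65 against 4.07). Those of Ereg (12.6) and Hbegf (8.21) had a higher one. A −log10 p depends on the depth and background of its own list (median background 1.39 for K17KO p53, 0.992 for WT p53). A WT value therefore does not say whether the same site would pass in the K17KO p53 list. Whether p53 binding at these genes differed between K17KO and WT skin was not tested, because each genotype is 1 list with no replicate, and genotype cannot be told apart from library depth or calling. None of the 5 p53 peaks at these genes overlapped an H3K4me3 peak, where 6.09% of all K17KO p53 peaks and 0.963% of all WT p53 peaks did. The Btc H3K4me3 peak overlapped no p53 peak, where 1.24% of H3K4me3 peaks overlapped a K17KO p53 peak and 0.512% a WT p53 peak.

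The other genes of the ErbB pathway, 45 in a list set by role, were counted by the same rule. In the K17KO p53 list 5 of 45 had a peak (11.1%, beside 5.94% of all genes), and in the WT p53 list 3 of 45 (6.67%, beside 10.8%). The WT p53 count was 1 of 45 with a 5 kb window and 5 of 45 with a 50 kb window. Among the receptors, Erbb2, the partner that binds no ligand, had a K17KO p53 peak 537 bp past its start, at 4.47-fold on 12 fragments over 1.91. Sos1, the Ras exchange factor that couples the receptor to Ras, had one 656 bp past its start at 4.73-fold on 9 fragments. Cbl, the ubiquitin ligase that degrades the receptor, had a 3.94-fold peak 81386 bp past its start. The kinase gene Akt1 had a 4.84-fold peak 8.54 kb outside it, within Siva1.

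The 3 WT p53 peaks of the pathway list were at Shc1, an adaptor of the receptor (4.35-fold, 14.9 kb before its start and within Flad1), Egr1, an early response transcription factor (3.51-fold, 7.31 kb outside), and Nrg1, a neuregulin ligand (3.02-fold, inside a gene of 1084 kb). Each rested on 6 to 8 fragments. None of the 4 ligand release genes, Adam10, Adam17, Rhbdf1 and Rhbdf2, had a p53 peak in either list, nor did any of the 11 negative regulators in the WT p53 list. Of all protein-coding genes only 5.94% had a K17KO p53 peak and 10.8% a WT p53 peak, so nothing is read from these absences.

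H3K4me3 peaks were found at 22 of the 45 pathway genes (48.9%, beside 32.9% of all genes). With a 5 kb window the count was 14 (beside 23.9% of all genes), and with each peak given to its nearest protein-coding gene only it was 12. All 3 other receptors had one within the window. The best Erbb3 peak lay 0.719 kb outside the gene (−log10 p 7.12). The best Erbb2 peak (6.17) lay outside that gene, 5719 bp before its start and 5569 bp from Pgap3, on 12 fragments. The Erbb4 peak lay 138 bp past its start but was weak (3.03). Signal transduction genes had 9 of 18, with the highest −log10 p at Mapk3, 11.4 kb outside the gene and within Ypel3 (16.7), and at Pik3ca, 623 bp past its start (also 16.7). Negative regulators had 6 of 11. They were led by Cbl (13.4, outside the gene and within Mcam), Dusp6 (9.21), an ERK phosphatase, Cblb (8.59) and Dusp5 (8.57). Early response targets had 3 of 5, namely Myc (13.6), Fos (9.14) and Egr1 (5.27), the ligand release genes 1 of 4, Rhbdf2 (9.47, within Ube2o), and the neuregulins 0 of 4. The pathway list was written with earlier results of these lists known and was not tested.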

How the data were processed

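Peak lists for p53 in K17KO skin, p53 in WT skin and H3K4me3 in WT skin were analysed, each with 10 columns and no header. The submitters' processing notes name Bowtie2 2.2.5, SAMtools 1.7, MACS2 2.1.2 and mm10, with no role or order. Which libraries, control and threshold stand behind each list is not stated. The deposited fold is a ratio at the summit, equal to the fragments plus 1 over the background plus 1, so it is below the plain ratio of the counts. The −log10 p and the −log10 q-value of each peak are as deposited, and the deposited score repeats the −log10 p and was not used. The deposited summit offset gave the summit.

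Genes came from RefSeq (GRCm38.p6) as start and end positions without exons, so coding, intronic and UTR sequence could not be separated. Starts and strands came from its promoter table. Fragments were recovered from fold and −log10 p as a Poisson tail, with a whole number matching within 0.001 in 100% of peaks. Intervals (95%, exact Poisson) cover counting error only. No list has a replicate, so no test was made. Steps were checked on simulated data and run in Python 3.11.15 with pandas 2.3.3, numpy 2.4.6 and scipy 1.17.1.

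The members and lists were chosen with earlier results of these data known. All 9 members are named, with up to 4 genes of each pathway role per list by −log10 p. Some pathway results are counted but not reported here by gene. Alternatives were the window, the q-value limit, the overlap rule and the assignment to the nearest gene. No genome sequence was used, so peak sequences beyond the promoter windows were not searched.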

Additional observations from a re-analysis of the deposited data

How the results depend on the processing

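Of 58 recomputed counts 40 stayed within 1.5 times the reported one and 18 did not, and counts this small move by a single peak. With a 5 kb window WT p53 members with a peak and their peaks were 2 each (Areg and Errfi1) and WT p53 pathway genes 1, where 6.75% of all protein-coding genes had a peak. H3K4me3 pathway genes were then 14, where 23.9% of all had one. With a 50 kb window H3K4me3 members and peaks were 3 each, where 45.1% of all genes had a peak, and WT p53 pathway genes 5, where 17.9% had one. Keeping q-values up to 0.1, the WT p53 members and peaks were 2 each and the pathway genes 1, beside 6.79% of all genes. Keeping those up to 0.01, the WT p53 members and peaks were again 2 each (Ereg and Hbegf) and the pathway genes 0, beside 1.45% of all genes. The K17KO p53 members and peaks were then 0, beside 4.29%, and the H3K4me3 members and peaks 0, beside 26.2%. With each peak given to its nearest protein-coding gene only, 12 pathway genes had an H3K4me3 peak. Counting any base of a peak moved none of the counts beyond that limit. The number of member peaks found in both p53 lists was 0 under each of the 4 other settings tried. Peaks at Areg and Errfi1 rest on 8 fragments, and at this depth a peak and its absence in another list are weakly separated.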
